A study of Mus musculus with 6 samples.

Results

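Replication-dependent histone genes encode the bulk of the linker histone H1 and of the core histones H2A, H2B, H3 and H4 that package newly made DNA. They lie in clusters, are transcribed mainly in S phase, and have transcripts that normally end in a conserved 3′ stem-loop in place of a poly(A) tail. The stem-loop binding protein Slbp attaches to that hairpin and guides processing, export, translation and turnover of the message. Some members also give transcripts that run past the hairpin to a poly(A) signal. Such polyadenylated forms are the ones a poly(A)-selected library captures by design.

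Members were the protein-coding genes of the mouse annotation whose symbol places them in the Hist1, Hist2, Hist3 or Hist4 clusters. The rule uses names only, and it was set with earlier results of these data known. The annotation held 67 such genes, and 61 of them had a row among the 24190 genes of the count table. By type, the rows comprised 6 H1, 15 H2A, 17 H2B, 10 H3 and 13 H4 genes. By place, 53 were in the Hist1 cluster on chromosome 13, 5 in Hist2 on chromosome 3, 2 in Hist3 on chromosome 11 and 1 in Hist4 on chromosome 6. Hist1h2aa, Hist2h2aa1, Hist2h2aa2, Hist2h2bb, Hist2h3b and Hist2h3c1 had no row and are not analysed here. The exons of those in Hist2 are overlapped by other annotated genes over 100% of their bases. Whether these genes were expressed cannot be told from the counts. Levels and sums by type cover only the genes with a row. The symbols of the older annotation are used, in which Hist1h1c is the gene now named H1f2.

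The RNA came from MTO54, the parental form of a mouse tumor organoid line. All 6 samples were this line, which was established from tumors of engineered mice, so the comparison rests on 1 line grown as organoids. In the treated group, 3 cultures received Folfiri, here 5FU at 50 μg/μl (the unit as labelled) with 100 nM SN38. 5FU disturbs thymidylate synthesis and SN38, the active form of irinotecan, traps topoisomerase I on DNA. By the labels, treatment began 2 days after seeding and lasted 2 days. A legend of the study gives a longer exposure, and which holds for these samples was not settled. The control group was 3 cultures in stem cell medium. Poly(A)-selected RNA was sequenced, and the comparison asks how gene expression differed after this chemotherapy.

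Total counts per sample ranged from 22103591 to 30098210. Control replicate 1 stood apart from the other controls, with a chi-square per degree of freedom of 25.3 and 23.9 against them, while the other pair gave 4.03. Folfiri replicate 3 likewise stood apart, at 13.3 and 12.8 against the other Folfiri samples, which gave 3.76. Without either sample in turn, 43 members were lower. The p-values measure the spread between cultures of 1 line. In bulk RNA, fewer cells in S phase and less histone RNA per cell cannot be told apart. Epithelial markers were abundant in every sample, with a summed level of 6152 to 7153 CPM (counts scaled to library size with TMM factors) in controls and 5113 to 5331 after Folfiri. All 9 epithelial markers were measured, of which 5 fell, 2 rose and 2 did not pass, where 38.8% of all tested genes fell and 40.3% rose. Fibroblast markers summed to 1.08 to 1.49 CPM in controls and 2.12 to 2.65 after Folfiri, and of the 8 genes 3 were tested, with Col1a1 lower and Dcn and Pdgfra higher. Immune cell markers summed to 0.640 to 0.720 and 1.64 to 1.81 CPM, and of the 9 genes 1, Ptprc, was tested and was higher. Lum and Cd3e had no row, and no listed marker of these other cell types exceeded 1.15 CPM in either group mean. Their part in the histone values was not tested.

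The hairpin was searched in every annotated transcript as the 16-base pattern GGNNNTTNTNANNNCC on the transcript strand, with the stem bases required to pair. It was present in 46 of the 67 members and in 155 of 55450 annotated genes (0.280%). Transcripts annotated short of their 3′ end can miss it. These 6 examples show the hairpin forms of genes described below, with the hairpin in capitals and 5 bases on either side, 5′ to 3′, as read from the GENCODE transcripts on GRCm38.
Hist1h1c: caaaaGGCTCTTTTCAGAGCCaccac
Hist1h2ao: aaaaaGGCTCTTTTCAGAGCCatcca
Hist2h3c2: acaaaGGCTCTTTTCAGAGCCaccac
Hist1h3e: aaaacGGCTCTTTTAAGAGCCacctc
Hist1h4i: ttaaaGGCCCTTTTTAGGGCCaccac
Hist1h4n: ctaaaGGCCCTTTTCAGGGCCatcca
The form of Hist1h1c was shared by 26 members of the H1, H2A, H2B and H3 types, and that of Hist1h4n by 7 members, all H4. The form of Hist1h3e occurred in 6 members. Annotated transcripts ran on for 840 bases past the hairpin in Hist1h1c and for 330 in Hist1h4i, while those of Hist1h2ao and Hist1h4n ended 31 bases past it.

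Most of the measurable family was lower after Folfiri. Of the 61 members with a row, 53 passed the filter on low counts, and 44 of these were lower after Folfiri, 0 were higher and 9 did not pass the threshold (edgeR quasi-likelihood test, adjusted p under 0.05 over all genes). At an unadjusted p under 0.05 the higher count was also 0, DESeq2 called 0 higher, and the fit without a filter on low counts called 1, Hist1h1a. Among all 14692 genes tested, 38.8% were lower and 40.3% higher, so the treatment moved much of the transcriptome in both directions. The median log2 fold change of the tested members was -2.06, against 0.02 over all genes. Values ranged from -5.54 for Hist1h1c to 0.44 for Hist1h3a. In 45 of the 61 members every Folfiri sample lay below every control sample, in 1 every Folfiri sample lay above, and in 15 the groups overlapped. Over all tested genes the groups did not overlap for 39.9% in the lower and 41.6% in the higher direction.

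The 5 types differed in these counts. All 3 tested H1 genes, all 17 H2B genes and all 10 tested H4 genes fell, as did 12 of 13 tested H2A genes. Of 10 tested H3 genes, 2 fell and 8 did not pass. Median log2 fold changes were -4.22 for H1, -1.65 for H2A, -2.29 for H2B, -0.17 for H3 and -1.80 for H4. With scaling by total counts alone, the H3 median was 0.10 and the median of all genes rose from 0.02 to 0.30, so a value near 0 in H3 has no stable direction. That scaling left 43 members lower and changed the split of all calls from 49.0% lower to 36.7% lower. No test compared the types with each other.

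**Figure D1:**
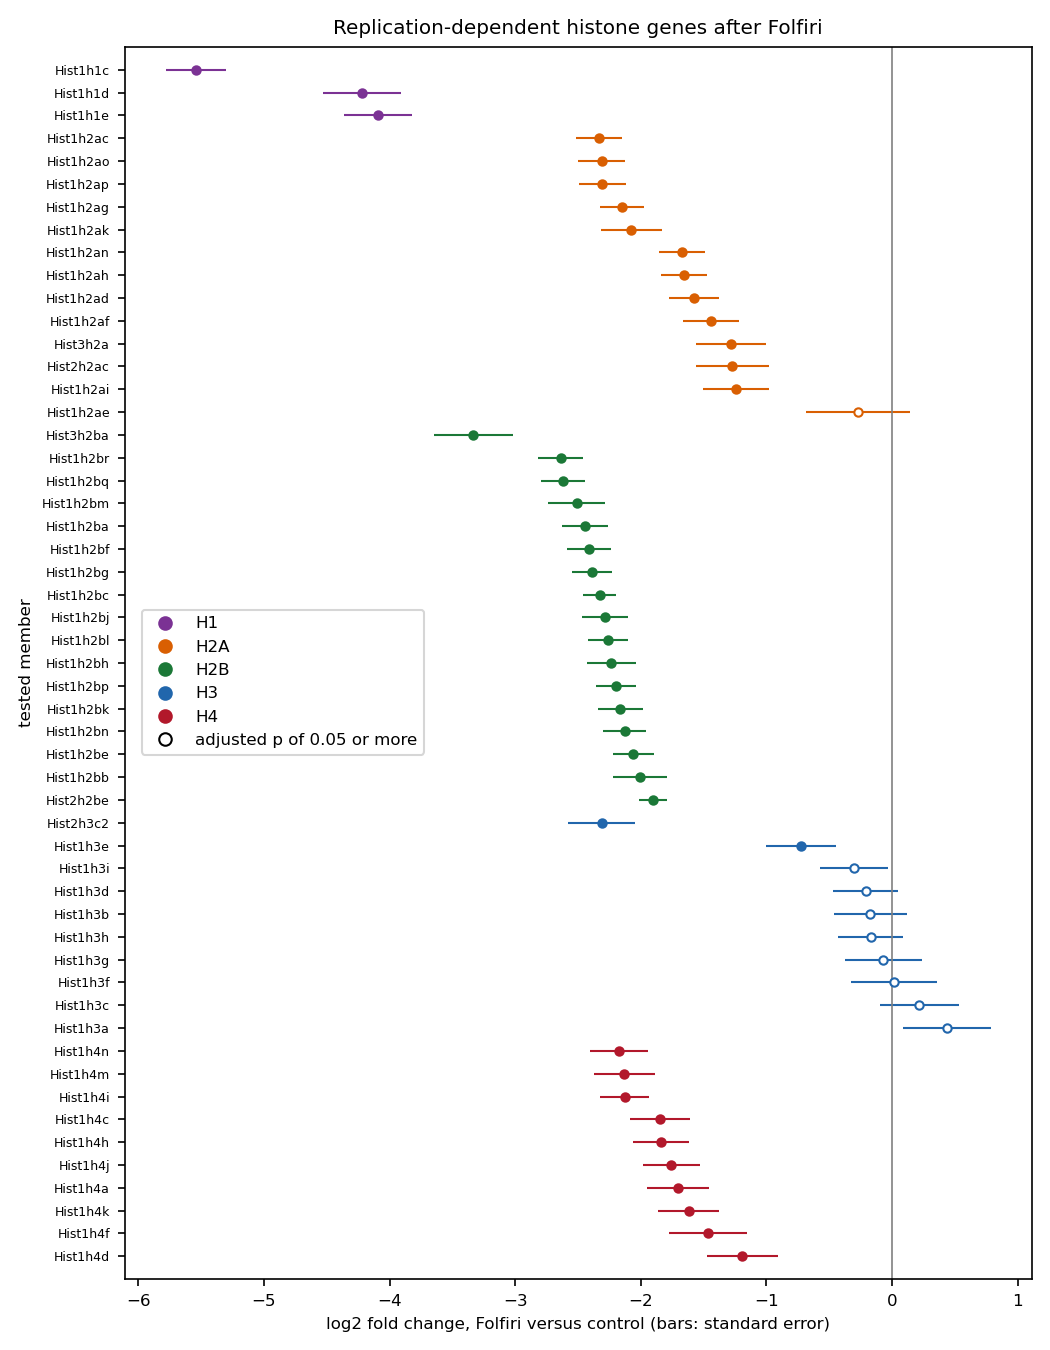
Log2 fold change of Folfiri versus control for each of the 53 tested replication-dependent histone genes, grouped and coloured by histone type, with bars for the standard error and open points for genes at an adjusted p of 0.05 or more. H1 genes lie between -5.54 and -4.09, H2B genes between -3.33 and -1.90, and all H3 genes other than Hist2h3c2 and Hist1h3e are open points near 0.

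The tested linker histone genes had the 3 lowest fold changes of the family. H1 binds the DNA that enters and leaves the nucleosome and compacts chromatin. Hist1h1c (ENSMUSG00000036181, chromosome 13, 23738808 to 23740367 on the plus strand, 1 exon) had 2965, 4606 and 3757 counts in the controls and 122, 98 and 104 after Folfiri. Scaled for library size, these were 107, 184 and 193 CPM against 4.09, 3.16 and 3.15 CPM. Every control sample thus lay far above every Folfiri sample, with control replicate 1 the lowest of the controls. The log2 fold change was -5.54 ± 0.24 (SE, n = 3 per group, edgeR adjusted p = 1.592e-08), a 46.5-fold lower level.

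Hist1h1d had 148, 225 and 205 counts in the controls and 11, 17 and 13 after Folfiri, a log2 fold change of -4.22 ± 0.31. Hist1h1e had 162, 219 and 191 counts against 11, 19 and 14, a log2 fold change of -4.09 ± 0.27. The exons of Hist1h1e overlap those of Hist1h2be and Gm11398 over 25.7% of their bases, so its reads are not its own throughout. Hist1h1c supplied 90.2% to 91.0% of the summed H1 level in controls and 68.1% to 83.6% after Folfiri.

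The other 3 H1 genes were near the floor of detection and were removed by the filter on low counts, so no fold is given for them. Hist1h1a, with 0 counts in each control, had 1, 4 and 4 counts after Folfiri. It was the only member with a row in which all Folfiri samples lay above all controls. Hist1h1b had 13, 10 and 5 counts against 1, 5 and 7. In TMM-scaled CPM these did not overlap (0.468, 0.400 and 0.257 against 0.0335, 0.161 and 0.212). That separation depends on the TMM factors, since with scaling by total counts alone the groups overlap. Without the filter, 4 H1 genes were called lower and 1, Hist1h1a, higher. Hist1h1t, known from testis, had a total of 1 count. Summed over the 6 genes, the H1 level averaged 178 ± 52.1 CPM without Folfiri and 4.62 ± 0.295 CPM with it (mean ± SD, n = 3). That is a 38.6-fold difference, or 14.6-fold without Hist1h1c.

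**Figure D2:**
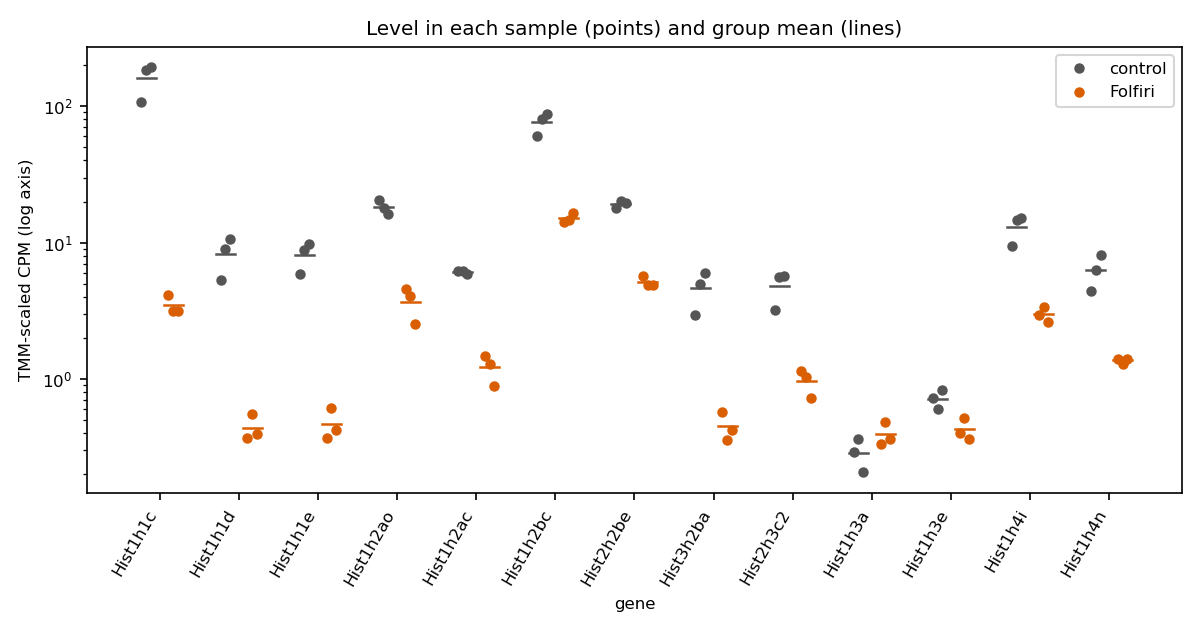
TMM-scaled CPM on a log axis for 13 members, with a point for each of the 3 control and 3 Folfiri samples and a line at each group mean. Hist1h1c drops from 107 to 193 CPM in controls to 3.15 to 4.09 CPM after Folfiri, and the groups are separate in each gene shown other than Hist1h3a.

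H2A and H2B form the dimers that flank the central H3 and H4 tetramer of the nucleosome. Hist1h2ao and Hist1h2ap had the highest H2A levels, and their counts differed by at most 1 in any sample. For Hist1h2ao the counts were 566, 449 and 316 in controls and 135, 125 and 83 after Folfiri. The log2 fold change was -2.31 ± 0.19 for either gene, and the pair cannot be counted as separate observations. Hist1h2ac, with 10.7% of its 50-base stretches also found in non-member genes, had 6.23, 6.20 and 5.86 CPM in controls and 1.48, 1.29 and 0.880 CPM after Folfiri. Its log2 fold change of -2.33 ± 0.19 was the lowest of the H2A genes.

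At the other end, Hist1h2ai fell by 1.24 on the log2 scale, with 72, 65 and 34 counts in controls and 23, 25 and 45 after Folfiri. In CPM its groups did not overlap. Hist1h2ae had 11, 16 and 10 counts in controls and 9, 8 and 23 after Folfiri, a log2 fold change of -0.27 ± 0.41 (edgeR adjusted p = 0.563). Folfiri replicate 3 was the highest sample there, and without it the value was -0.86 (edgeR adjusted p = 0.0648). The same sample was the highest for Hist1h2ab, with 31 counts against 6 and 3 in the other Folfiri samples and 9, 12 and 7 in controls. Hist2h2ab had 1 count in all. The summed H2A level came to 88.2, 86.0 and 72.3 CPM in the controls and fell to 22.7, 21.4 and 20.5 CPM.

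All 17 H2B genes with a row fell. Hist1h2bc (chromosome 13, 23684199 to 23692908, plus strand, 2 exon blocks), the highest of them, had 1680, 2004 and 1700 counts in controls and 421, 455 and 544 after Folfiri. Its log2 fold change was -2.33 ± 0.13. Hist2h2be (chromosome 3, 96221119 to 96223738, plus strand, 1 exon) shared none of its 50-base stretches with any other gene. It had 500, 506 and 380 counts against 170, 150 and 161, or 18.0, 20.2 and 19.5 CPM against 5.70, 4.84 and 4.88 CPM. The groups were well separated and the log2 fold change was -1.90 ± 0.11 (n = 3 per group, edgeR adjusted p = 1.207e-07).

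Hist3h2ba, on chromosome 11, fell furthest of the H2B genes, from 82, 124 and 116 counts to 17, 11 and 14, a log2 fold change of -3.33 ± 0.31. Hist1h2bq and Hist1h2br differed by at most 11 counts in any sample and had log2 fold changes of -2.62 and -2.64. The remaining H2B genes above a mean of 10 CPM, Hist1h2bg and Hist1h2be, had log2 fold changes of -2.39 and -2.06. Hist1h2bb fell from 3.71, 4.24 and 4.83 CPM to 0.905, 0.839 and 1.40 CPM. The summed H2B level averaged 259 ± 45.5 CPM without Folfiri and 51.8 ± 4.32 CPM with it, a 5.01-fold difference.

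The H3 genes with a row were low in level before treatment. Within the Hist1 cluster, the 9 H3 genes summed to 4.82, 4.80 and 5.09 CPM in controls and 4.16, 5.29 and 3.79 CPM after Folfiri, so the groups overlapped. Hist1h3a had 8, 9 and 4 counts against 10, 15 and 12 (log2 fold change 0.44 ± 0.35, edgeR adjusted p = 0.290). Hist1h3c had 10, 11 and 10 counts against 12, 20 and 15 (0.22 ± 0.31, edgeR adjusted p = 0.538). The standard errors of these genes, 0.26 to 0.35 on the log2 scale, mean that a modest change in either direction was not detectable at this depth.

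Hist1h3e had 20, 15 and 16 counts in controls and 12, 16 and 12 after Folfiri. Its log2 fold change of -0.72 ± 0.28 passed narrowly (edgeR adjusted p = 0.0334). The call was lost when control replicate 1, control replicate 3, Folfiri replicate 1 or Folfiri replicate 3 was left out, with values of -0.87 to -0.61 over all 6 omissions, and with DESeq2 (adjusted p = 0.172). Hist2h3c2, in the Hist2 cluster (chromosome 3, 96238108 to 96239127, minus strand, 1 exon), had 89, 140 and 111 counts in controls and 34, 32 and 24 after Folfiri, a log2 fold change of -2.31 ± 0.27. Of its 50-base stretches, 63.5% are also found in other genes, including Gm20634 and the H3 genes without a row. It supplied much of the summed H3 level, which was 8.03, 10.4 and 10.8 CPM in the controls against 5.30, 6.33 and 4.52 CPM with Folfiri.

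H4 forms the tetramer with H3, and all 10 tested H4 genes fell. Hist1h4i, named here after its values were seen because it had the highest H4 level, had 261, 364 and 296 counts in controls and 87, 105 and 86 after Folfiri. Its log2 fold change was -2.13 ± 0.20. Hist1h4n and Hist1h4m had log2 fold changes of -2.17 and -2.13, and these neighbours share most of their sequence with each other. The smallest changes were those of Hist1h4d, with 32, 44 and 33 counts against 18, 28 and 16 (-1.19 ± 0.28), and Hist1h4f (-1.47 ± 0.31). Hist1h4b had 4, 2 and 2 counts against 2, 3 and 1, Hist2h4 had 8, 9 and 4 against 7, 5 and 1, and Hist4h4 had 1, 7 and 0 against 2, 6 and 4. The summed H4 level averaged 46.5 ± 12.1 CPM without Folfiri and 12.4 ± 1.48 CPM with it. Where copies share reads, these sums can count a read more than once.

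Paralogy limits how far single members can be told apart. In the annotated transcripts of the 61 members with a row, a median of 49.5% of all 50-base stretches also occurred in another gene, and for 29 members the share was over 50%. Linking tested members that shared at least 50% of their 50-base stretches left 21 sequence groups, the largest holding 11 H2B, 10 H2A, 9 H3 and 5 H4 genes. The highest member then stood for each group, an alternative chosen after seeing the data. Of these, 20 of 21 were lower, against 38.8% of all tested genes. The remaining group was that of the Hist1 H3 genes, whose highest member, Hist1h3d, did not pass (-0.21 ± 0.26). Of the 8 members that shared under 10%, 3 were tested, namely Hist1h1c, Hist1h1d and Hist2h2be, and all 3 fell. The library kit does not mark strand, and all 13 tested H2A genes overlap an antisense annotation, whose reads cannot be told from theirs.

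**Figure D3:**
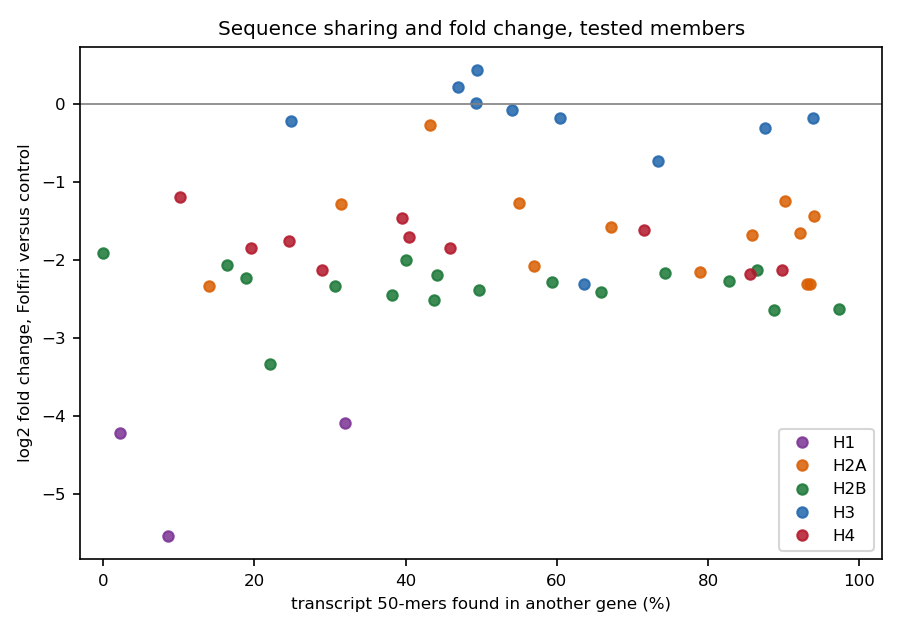
Log2 fold change of each tested member against the percent of its transcript 50-mers that also occur in another annotated gene, coloured by histone type. Lower values occur across the whole range, with Hist2h2be at -1.90 and 0% shared and Hist1h1c at -5.54 and 8.54% shared, and the H3 genes near 0 share 24.8% to 93.9%.

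Most tested members with each kind of annotated transcript end were lower, where 38.8% of all tested genes were. The 19 tested members whose annotated transcript ran over 100 bases past the hairpin had a median log2 fold change of -2.06, with 16 lower. The 19 that ended within 100 bases of it had a median of -2.13, with 15 lower, and the 15 with no hairpin in the annotated transcript had -1.90, with 13 lower. Members with the poly(A) signal AATAAA or ATTAAA in the last 50 bases had a median of -2.06, and those without it -2.04. Some annotated transcripts without a hairpin are short, at 312 bases for Hist1h4k and 381 for Hist1h2bl, and may lack their 3′ end. Absence of a hairpin there does not show its absence from the RNA. The ends used in these samples were not measured.

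Promoters were taken from RefSeq (GRCm38.p6), with 250 bases before and 50 after each start, for the 62 members with an entry. TATAAA was found at any position on either strand in 56.5% of members and 15.7% of all 27025 genes with an entry. A gene counted if any of its entries held the motif. CCAAT, which nuclear factor Y binds, was in 85.5% against 41.1%, with all 10 H3 and 3 of 12 H4 promoters holding it. The H1 box AAACACA was in 5 of 6 H1 promoters against 8.22% of all, and the octamer ATTTGCAT in 22.6% of members against 1.97%. The 150 bases before the start are shown for a gene that fell furthest, an H3 gene that did not pass (chosen after its values were seen) and an H4 gene that fell, with these motifs in capitals.
Hist1h1c, chr13:23738657-23738806, plus strand: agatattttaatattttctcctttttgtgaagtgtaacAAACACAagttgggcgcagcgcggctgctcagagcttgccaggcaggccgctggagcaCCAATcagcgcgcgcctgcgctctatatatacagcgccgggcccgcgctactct
Hist1h3h, chr13:21717478-21717627, plus strand: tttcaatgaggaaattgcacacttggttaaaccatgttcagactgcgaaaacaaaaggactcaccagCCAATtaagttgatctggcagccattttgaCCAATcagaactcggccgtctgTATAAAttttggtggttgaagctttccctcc
Hist1h4n, chr13:21832198-21832347, minus strand: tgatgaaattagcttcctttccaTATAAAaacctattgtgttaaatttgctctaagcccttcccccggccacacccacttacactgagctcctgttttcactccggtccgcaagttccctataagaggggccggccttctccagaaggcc
The Hist1h3h window holds both CCAAT and TATAAA, and its gene had a log2 fold change of -0.17 ± 0.26 (edgeR adjusted p = 0.586). Hist1h4n holds TATAAA and no CCAAT, and fell. Counted from the first of the 250 bases before the start, TATAAA begins at base 220 in Hist1h3h and 124 in Hist1h4n. The 2 matches thus lie at different distances from the start. A motif match describes letters only.

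Replication-independent histone genes, most of which carry poly(A) tails and are expressed outside S phase as well, had a median nearer 0. Of 10 tested, 8 fell and 1 rose, with a median log2 fold change of -0.65, where 38.8% of all genes fell and 40.3% rose. H1f0, a linker histone of slowly dividing cells, fell from 610 ± 8.10 to 125 ± 14.4 CPM (log2 fold change -2.29 ± 0.09). Cenpa, the centromeric H3 variant, fell by 1.68 on the log2 scale and H2afx, whose protein is phosphorylated at DNA breaks, fell by 1.58. Lower calls also came at -0.87 for H1fx, -0.70 for H3f3b, -0.60 for H2afv and -0.31 for H2afy, which encodes macroH2A. With total counts H2afy was at -0.04 and not called. H2afz was at -0.21 ± 0.08 (edgeR adjusted p = 0.0248), a call lost without control replicate 2 or 3 or without Folfiri replicate 1 or 2 (-0.23 to -0.17), with upper quartile factors (-0.16) and with scaling by total counts (0.06). H3f3a, which with H3f3b encodes H3.3, was at -0.11 ± 0.08 (edgeR adjusted p = 0.206), and has no stable direction. It was called lower at -0.17 without control replicate 1 and higher at 0.165 with scaling by total counts. H2afj was the exception, at 41.2 ± 4.84 CPM in controls and 64.9 ± 7.35 CPM after Folfiri (log2 fold change 0.66 ± 0.11).

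Of 23 tested genes that process and turn over histone messages, 15 rose and 4 fell, with a median log2 fold change of 0.43, where 40.3% of all genes rose and 38.8% fell. Slbp was at 121 ± 3.38 CPM in controls and 137 ± 6.60 CPM after Folfiri (log2 fold change 0.18 ± 0.07, edgeR adjusted p = 0.0319). That call was lost without control replicate 2 or 3 or without Folfiri replicate 2 or 3, at 0.14 to 0.20, with the replicate block at 0.18 (edgeR adjusted p = 0.0649) and without the count filter at 0.15 (edgeR adjusted p = 0.135). Npat, the coactivator of histone transcription in S phase, was at 0.15 ± 0.08 (edgeR adjusted p = 0.107) and was called higher at 0.21 without Folfiri replicate 3, at 0.21 with upper quartile factors and at 0.43 with scaling by total counts. Casp8ap2 (FLASH), needed for cleavage at the hairpin, rose by 1.52 ± 0.12. The U7 snRNP proteins Lsm10 and Lsm11 fell, at -0.68 and -0.67, and the cleavage scaffold Sympk fell by 0.62. Zfp473 rose by 0.59, the 3′ exonuclease Eri1 by 0.36, and the cap-binding partners Ncbp2 and Srrt by 1.72 and 1.17.

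Among 22 tested histone chaperones and assembly factors, 13 rose and 5 fell, with a median log2 fold change of 0.28, against 40.3% and 38.8% of all genes. With scaling by total counts 2 fell and the median was 0.55. Chaf1b, a subunit of the replication-coupled assembly factor CAF-1, rose by 1.01 ± 0.20, Supt16 of the FACT complex by 1.06 and the histone importin Ipo4 by 1.18. Hjurp, which deposits Cenpa, fell by 1.04, the H2A.Z chaperone Anp32e fell by 0.90 and Atrx fell by 0.46. The Atrx call was lost with total counts, at -0.18.

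S phase genes, measured because histone transcription is tied to S phase, moved in both directions, as did genes overall. Of 24 tested, 13 rose and 7 fell, with a median log2 fold change of 0.35, against 40.3% and 38.8% of all genes. Mcm2 of the replicative helicase rose from 87.2 ± 18.8 to 216 ± 13.0 CPM (1.31 ± 0.13), Rpa2 rose by 1.46 and Fen1 by 1.23. Lig1, which joins Okazaki fragments, fell from 150 ± 1.43 to 48.0 ± 0.972 CPM (-1.64 ± 0.06), Pola1 fell by 1.27, and Rrm1, a ribonucleotide reductase subunit, fell from 294 ± 5.22 to 147 ± 3.49 CPM. Their part in the histone values was not tested.

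**Figure D4:**
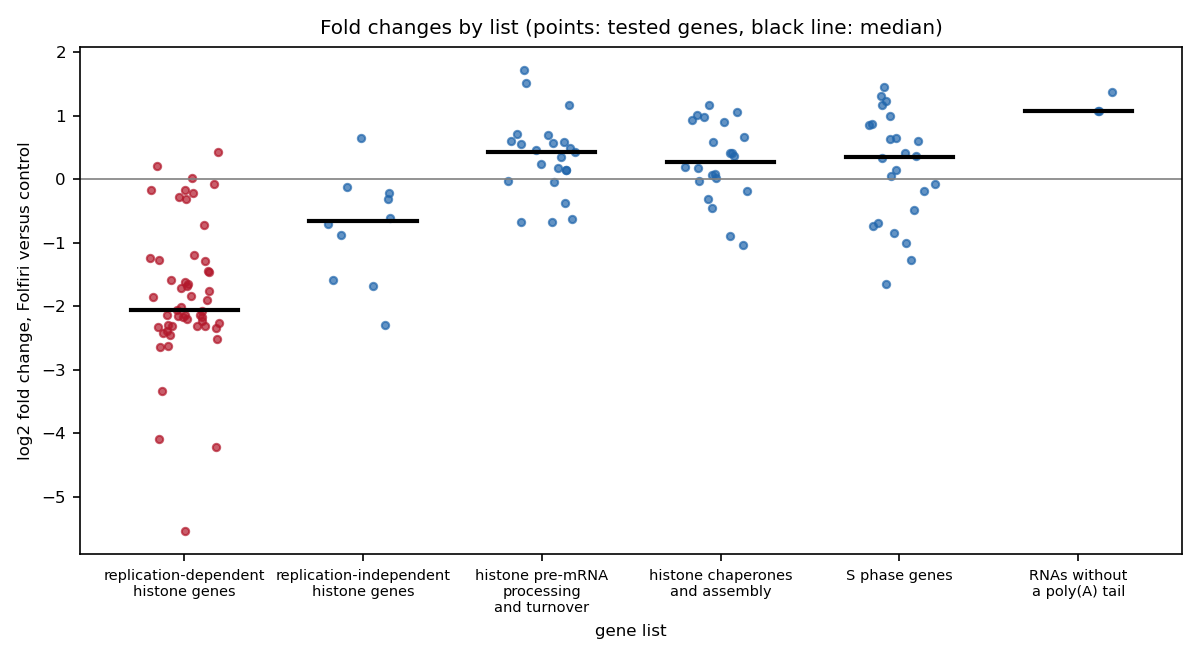
Log2 fold change of Folfiri versus control for every tested gene of 6 lists, with a black line at each median. The replication-dependent histone genes centre on -2.06, the replication-independent ones on -0.65, and the processing, chaperone and S phase lists on 0.43, 0.28 and 0.35.

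Of 11 listed RNAs that lack a poly(A) tail, 5 had a row and 3 were tested, and these 3 rose, as did 40.3% of all tested genes. Rn7sk, the 7SK RNA, was at 6.92 ± 2.84 CPM in controls and 17.7 ± 1.52 CPM after Folfiri (log2 fold change 1.38 ± 0.23), and Rn7s1 and Rn7s2, near-identical 7SL genes whose counts cannot be taken as separate observations, rose by 1.08 and 1.07. Rnu12 and Snord118, with a mean of at most 0.0438 CPM in either group, were not tested. Genes annotated as snRNA summed to 17.7 ± 3.44 CPM in controls and 32.3 ± 4.64 CPM after Folfiri. The snoRNA sums were 47.5 ± 14.6 and 65.4 ± 2.49 CPM, and the scaRNA sums 2.23 ± 0.634 and 3.03 ± 0.169 CPM. In each class all Folfiri samples lay above all controls, as in 41.6% of all tested genes, the opposite direction to the histone genes. Whether a change in the carry-over of RNA without a tail had a part in the histone values was not tested.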

How the data were processed

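RNA sequencing of 3 control and 3 Folfiri cultures was analysed, grouped by the labels. The line's engineered genotype is not reported here. The authors aligned reads with STAR 2.5.2 to the mouse genome with GENCODE annotation, sorted with Sambamba, counted per gene with Rsubread and deposited raw counts without normalization. The strand setting and the handling of reads with several positions are not given in the sources used here, and the library kit does not mark strand. Near-identical copies therefore carry uncertain counts. Per-sample columns not used numbered 0.

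Genes were named by matching identifiers to GENCODE vM21 on GRCm38 (24168 of 24190 matched). edgeR 4.0.16 in R 4.3.3 was applied to all genes: default expression filter, TMM factors, quasi-likelihood test and Benjamini-Hochberg adjustment at 0.05. CPM values are TMM-scaled. DESeq2 1.42.0 was an alternative. The fit was also run on simulated counts in which few genes changed. That run cannot check its error rate in data where most genes move, and no conclusion is drawn from it. Shared sequence was counted as 50-mers found in other annotated genes, on either strand.

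Members and gene lists were chosen with earlier results of these data known. Named genes were members above a mean of 10 CPM, the 2 highest and 2 lowest fold changes per type, members under the filter with their counts, every tested replication-independent histone gene, 7 fixed processing genes, and of the other lists up to 3 per direction. Total counts were 22103591 to 30098210 per sample. Standard errors and p-values come from the fit and cover the spread between 3 cultures per group.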

Additional observations from a re-analysis of the deposited data

How the results depend on the processing

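The number of members called lower was 43 to 45 when any sample was left out, and 43 or 44 under the other normalizations, filters, the replicate block and DESeq2. Restriction to members sharing under 10% of 50-mers left 3 lower with a median of -4.22, and 1 member per sequence group left 20 lower. Scaling by total counts alone gave medians of -1.78 for all members, -1.38 for H2A, 0.10 for H3, -0.37 for replication-independent histones, 0.70 for processing, 0.55 for chaperones and 0.63 for S phase genes. It also gave 2 replication-independent genes higher, 2 chaperones lower, a summed H2A log2 ratio of -1.66 and H2afz at 0.064. These follow the shift of all genes, whose median was 0.02 with TMM and 0.30 with total counts. Without a filter, 1 member, Hist1h1a of the H1 type, was called higher, Hist1h1b was called lower, the H1 median was -2.80 and the chaperone median 0.25. With DESeq2 the H1 median was also -2.80, since more H1 genes were fitted. Upper quartile factors gave 0.48 for processing and 0.33 for chaperones. With at least 1 CPM in 3 samples the H3 median was -2.30, from Hist2h3c2 alone, and the chaperone median 0.29. H3 genes called lower numbered 1 with total counts, without a filter, with the 1 CPM minimum, with the replicate block and with DESeq2, and 1 to 2 with a sample left out. Left-out samples gave medians of -0.74 to -0.62 for replication-independent histones, 0.36 to 0.48 for processing and 0.25 to 0.32 for chaperones. Without its highest member, the log2 ratio of the summed level was -3.87 for H1 and -0.15 for H3.

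Sample numbers did not pair the samples (correlations of same-numbered deviations over genes were 0.0267, -0.117 and 0.0393), and the replicate block left 43 members lower, with Hist1h3e at -0.73 and Slbp at 0.18 no longer called. Of the other summary values under an alternative, 435 stayed within their spread or within 1.5 times the count. Depth limits the Hist1 H3 genes and the 8 members under the filter.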
